A study of Homo sapiens with 8 samples.

Results

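The nuclear genes of respiratory complexes I to III were followed across 4 human tumour cell lines, each sorted into cells with and without the surface transporter ABCB5. Genes were chosen by name: a probe set had to be annotated to 1 gene whose symbol starts with NDUFA, NDUFB, NDUFC, NDUFS, NDUFV or UQCR, or is that of a succinate dehydrogenase subunit or CYC1. Assembly factors, pseudogenes and a divergent transcript were left out, and the brightest probe set stood for each gene. This gave 45 of the 18417 genes named on the array. They comprised 6 core and 28 accessory subunits of complex I, 3 subunits of complex II and 8 of complex III.

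Transcripts were measured on 8 Affymetrix Human Gene 1.0 ST arrays, with values on a log2 scale. The lines COLO741, SW620, HT29 and HCT116 are established lines given in the labels as colon carcinoma or, for HT29, adenocarcinoma, with SW620 from a lymph node metastasis. Each line gave 1 array of ABCB5-positive and 1 of ABCB5-negative cells, sorted by flow cytometry with an anti-ABCB5 antibody, so each population had 4 arrays and each line 2. The culture medium was RPMI with added serum and antibiotics for every line, and the labels state no drug, genetic change or time point. In the design text of the series the line labelled SW620 is written SW480, and the name on the samples was kept. The labels say nothing of separate cultures within a line, so the 2 arrays of a line differ by sort and not as repeated cultures, and the spread between them may be technical.

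The respiratory chain of the inner mitochondrial membrane passes electrons from nutrients to oxygen and pumps protons that drive ATP synthesis. Complex I takes electrons from NADH and complex II, which is also the succinate dehydrogenase of the citric acid cycle, takes them from succinate. Both hand them to ubiquinone, and complex III passes them from ubiquinol to cytochrome c. The core subunits of complex I carry the flavin and the iron-sulphur clusters or form the proton channels, and accessory subunits surround and stabilise them. The core subunits of the membrane arm, and cytochrome b of complex III, are made from mitochondrial DNA and were not analysed here. Neither were SDHB and UQCRFS1, nor NDUFS5, NDUFC2 and UQCRHL, which only probe sets naming several genes covered. NDUFA4, long counted as a complex I subunit, is now named COXFA4 as a complex IV subunit and was set beside the 45 genes and not among them.

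The upstream sequences of 5 genes are shown as examples, because their levels separated the lines in different ways. They were not picked by a rule, so their matches do not stand for the 45 genes. Nuclear respiratory genes are known to be bound by the transcription factors NRF1 and GABPA, and many by YY1 and ESRRA. RefSeq promoter windows of GRCh38.p14, running from 250 bases before to 50 after the annotated start, were matched for 40 of the 45 genes and searched on both strands. CYC1, NDUFB5, NDUFB9, SDHC and UQCRB had no matched window. The letters searched were GCGCA, then any base, then GCGC for NRF1, CCGGAAGT for GABPA, AANATGGCG for YY1 and CAAGGTCA for ESRRA. The 250 bases before the start are printed on the gene's own strand, 5′ to 3′, with matches in capitals. They lie at chr5:218070-218319 on the plus strand for SDHA, chr3:48609647-48609896 on the minus strand for UQCRC1, chr19:54102605-54102854 on the plus strand for NDUFA3, chr19:1605463-1605712 on the minus strand for UQCR11 and chr5:53560389-53560638 on the plus strand for NDUFS4.
SDHA: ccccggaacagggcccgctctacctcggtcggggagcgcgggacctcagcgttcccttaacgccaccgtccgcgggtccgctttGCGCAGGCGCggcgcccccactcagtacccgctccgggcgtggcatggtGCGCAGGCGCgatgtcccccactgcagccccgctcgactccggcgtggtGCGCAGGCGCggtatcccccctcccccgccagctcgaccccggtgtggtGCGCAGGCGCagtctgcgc
UQCRC1: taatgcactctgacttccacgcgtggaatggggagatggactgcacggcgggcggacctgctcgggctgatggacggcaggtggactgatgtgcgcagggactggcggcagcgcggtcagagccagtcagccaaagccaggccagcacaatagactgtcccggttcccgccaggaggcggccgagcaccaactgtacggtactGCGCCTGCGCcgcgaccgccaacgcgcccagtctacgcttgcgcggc
NDUFA3: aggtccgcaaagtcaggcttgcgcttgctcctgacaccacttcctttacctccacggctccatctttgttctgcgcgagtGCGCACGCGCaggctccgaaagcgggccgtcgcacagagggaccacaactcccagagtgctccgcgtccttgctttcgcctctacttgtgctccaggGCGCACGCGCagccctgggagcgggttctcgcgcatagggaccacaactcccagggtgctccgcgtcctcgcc
UQCR11: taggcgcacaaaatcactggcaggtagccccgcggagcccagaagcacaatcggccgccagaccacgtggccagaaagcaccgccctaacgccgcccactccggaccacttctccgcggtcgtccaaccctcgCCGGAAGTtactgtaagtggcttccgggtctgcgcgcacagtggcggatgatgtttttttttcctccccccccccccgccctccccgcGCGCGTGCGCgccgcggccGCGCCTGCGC
NDUFS4: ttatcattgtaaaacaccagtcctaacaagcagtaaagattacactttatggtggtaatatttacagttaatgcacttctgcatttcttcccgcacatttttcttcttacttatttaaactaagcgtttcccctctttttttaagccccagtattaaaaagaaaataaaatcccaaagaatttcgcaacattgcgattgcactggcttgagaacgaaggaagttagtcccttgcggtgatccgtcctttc

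SDHA held the NRF1 letters at 4 places, beginning at positions -166, -117, -68 and -19 from the start. In the printed stretches UQCRC1 had 1 NRF1 match, NDUFA3 had 2, and UQCR11 had 2 together with a GABPA match. No 2 matches overlapped there. NDUFS4 had none of the letters in the printed stretch. The full searched windows of NDUFS4 and UQCRC1 did hold the YY1 letters, at places not wholly within the bases printed. Both genes are therefore among the YY1 windows counted below. Over the 40 matched genes, 11 windows (27.5%) held the NRF1 letters, against 9.38% of the windows of 13184 tested genes. The YY1 letters stood in 12 windows (30%) against 5.44%, the GABPA letters in 6 (15%) against 6.77%, and the ESRRA letters in 2 (5%) against 0.933%. Of the 12 YY1 windows, only that of NDUFS8 held the letters wholly within the 250 bases before the start. In all the others the match reached into, or lay in, the 50 bases after it. The YY1 share is thus not one of upstream matches. A match of letters is a description of the sequence, and binding was not measured.

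All 45 genes were bright enough to be tested, and the mean of each lay above 7.51, the 95th percentile of 357 probe sets for olfactory receptors, which served as background. The 40 genes with 1 probe set left no choice of probe set. NDUFB4 had 2 with identical values, and the second NDUFS4 probe set read 5.02 to 5.55 in the 8 arrays, near the background median of 5.74. For NDUFV2, SDHC and SDHD the dimmer probe set was also nearly level between lines, with line means of 12.47 to 12.64, 10.82 to 10.97 and 11.19 to 11.40. RefSeq names pseudogenes for 24 of the 45, among them 7 for SDHD and 5 for SDHC, and whether probes also detect such copies was not tested. COLO741 stood apart from the other lines: the mean log2 level of 7 melanocyte markers was 12.79 and 12.93 in its arrays and 6.55 to 6.72 elsewhere. The mean of 10 intestinal epithelial markers was 7.73 and 7.87 in COLO741 and 9.96 to 12.07 elsewhere. The part of this difference in cell identity in the COLO741 values that follow was not tested.

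The 45 genes differed between lines about as often as genes at large, but seldom by large steps. By limma's moderated F test over the 4 lines, with Benjamini-Hochberg adjustment over the 16910 genes tested, 33 of 45 (73.3%) passed at 0.05, against 67.2% of all genes tested. The median distance between a gene's highest and lowest line mean was 0.50 log2 units, against 0.64 for all genes, and only NDUFS4, UQCRB and CYC1 (6.67%) passed 1 log2 unit, against 31.5% of all genes. Under 0.5 log2 units lay 46.7% of the 45 and 40.5% of all genes. The median was lower still for complex IV (0.36), citric acid cycle (0.41), ATP synthase (0.45) and membrane carrier and import genes (0.46). It was higher for assembly factors (0.61), electron carriers (0.72) and regulators of mitochondrial gene expression (0.76). Core complex I subunits passed in 2 of 6 cases, accessory subunits in 23 of 28, complex II subunits in 1 of 3 and complex III subunits in 7 of 8. No line was lowest throughout: HT29 was lowest for 18 genes, COLO741 for 12, HCT116 for 9 and SW620 for 6. Of the 16910 genes tested, HT29 was lowest for 3701, COLO741 for 5121, HCT116 for 2940 and SW620 for 5148.

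**Figure D1:**
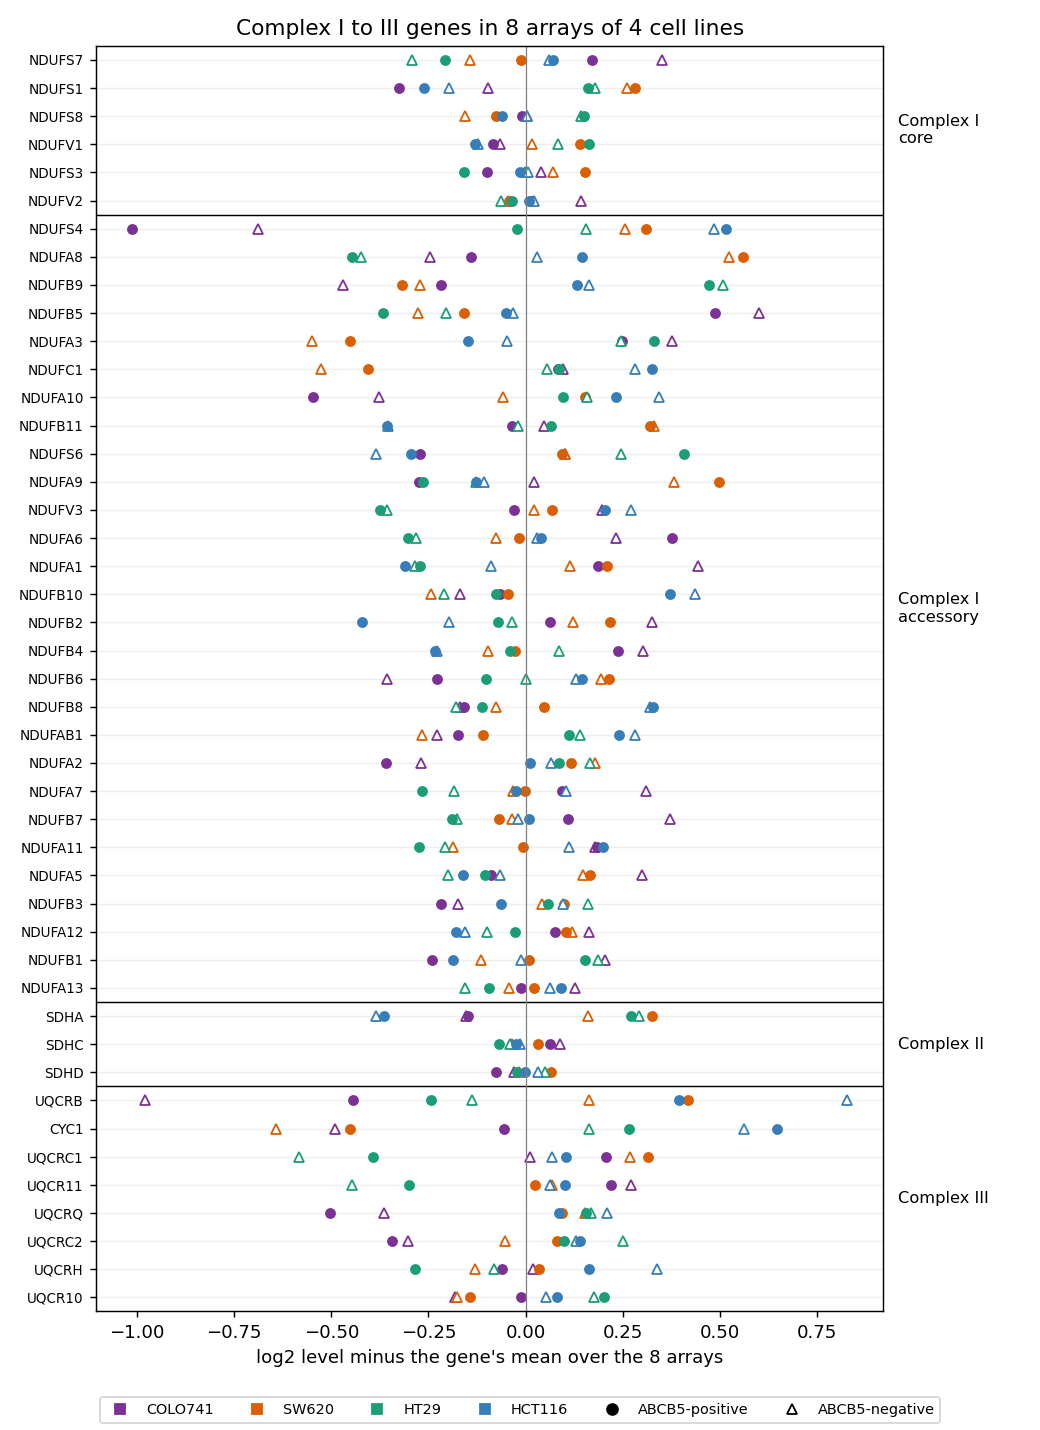
Log2 level of each gene in each of the 8 arrays minus that gene's mean over the arrays, with genes grouped by complex and, within a complex, ordered from the largest to the smallest range of line means; colours mark lines, filled circles ABCB5-positive and open triangles ABCB5-negative cells. NDUFS4 in COLO741 lies farthest to the left among the complex I genes. SDHD, with line means of its brightest probe set within 0.08 of each other, stays at the centre.

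Among the core subunits of complex I, which do the electron transfer, levels were close between lines. NDUFV1, which binds NADH and the flavin, read 12.01 to 12.30 over the 8 arrays, and NDUFV2, an iron-sulphur subunit, 12.55 to 12.76. NDUFS3, at the base of the peripheral arm, read 12.70 to 13.01, and NDUFS8, another iron-sulphur subunit, 11.47 to 11.78. None of these 4 passed the F test (adjusted p = 0.0956 to 0.511 with limma), and their line means spanned 0.13 to 0.26 log2 units.

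The 2 core genes that passed differed in opposite ways. NDUFS1, the largest core subunit with several iron-sulphur clusters, read 11.78 and 11.55 in COLO741 (ABCB5-negative first, here and throughout), 12.14 and 12.16 in SW620, 12.06 and 12.04 in HT29 and 11.68 and 11.62 in HCT116. COLO741 and HCT116 thus lay below SW620 and HT29 with no overlap, and SW620 exceeded HCT116 by 0.50 (adjusted p = 0.00724 with limma), a call lost without the ABCB5-positive SW620 array (adjusted p = 0.0542) or without either HCT116 array (0.0600 and 0.0587). NDUFS7, whose cluster passes electrons to ubiquinone, read 10.19 and 10.01 in COLO741, 9.70 and 9.83 in SW620, 9.55 and 9.63 in HT29 and 9.90 and 9.91 in HCT116. It was highest in COLO741, 0.51 above HT29 (adjusted p = 0.00714 with limma), a call lost without the ABCB5-negative HT29 array (adjusted p = 0.0673).

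The accessory subunit NDUFS4, which sits on the peripheral arm and is known from inherited complex I deficiency, varied most of all 45. It read 9.90 and 9.57 in COLO741, 10.84 and 10.89 in SW620, 10.74 and 10.56 in HT29 and 11.07 and 11.10 in HCT116. Both COLO741 arrays lay below all 6 others. COLO741 was lower than the mean of the other 3 lines by 1.13 ± 0.10 (SE) log2 units, or 2.19-fold, with a limma adjusted p of 0.000135. HCT116 was the highest line, 2.55-fold above COLO741, but it did not differ from SW620 beyond the spread (0.22, adjusted p = 0.194 with limma).

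NDUFA8, a small accessory subunit facing the intermembrane space, set SW620 apart. It read 11.60 and 11.71 in COLO741, 12.37 and 12.41 in SW620, 11.43 and 11.40 in HT29 and 11.88 and 12.00 in HCT116. SW620 was highest, by 0.72 ± 0.07 (SE) against the mean of the other lines, and exceeded HT29 1.97-fold (limma adjusted p = 0.000349 and 0.000234). NDUFA9, an accessory subunit of the peripheral arm, was also highest in SW620, at 12.99 and 13.11 against 12.34 to 12.63 in the other 6 arrays, a difference of 0.59 ± 0.09 (SE; limma adjusted p = 0.00313).

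NDUFB5, a membrane-arm subunit, was highest in COLO741. It read 12.94 and 12.83 there, 12.07 and 12.18 in SW620, 12.14 and 11.97 in HT29 and 12.31 and 12.29 in HCT116. The COLO741 arrays lay above all others, by 0.73 ± 0.08 (SE) against the other lines' mean (limma adjusted p = 0.000459), and SW620 and HT29 could not be ordered (0.07, adjusted p = 0.623). NDUFA3, another small membrane subunit, read 12.71 and 12.58 in COLO741, 11.79 and 11.88 in SW620, 12.58 and 12.67 in HT29 and 12.29 and 12.19 in HCT116. SW620 was lowest and fell by 0.67 ± 0.08 (SE) below the other lines' mean (limma adjusted p = 0.000861), while COLO741 and HT29 overlapped. NDUFC1, also in the membrane arm, was likewise lowest in SW620, at 10.24 and 10.36 against 10.82 to 11.09 elsewhere (limma adjusted p = 0.000601).

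NDUFB9, a membrane-arm subunit of the LYR motif family, was highest in HT29. It read 12.57 and 12.82 in COLO741, 12.77 and 12.72 in SW620, 13.55 and 13.51 in HT29 and 13.20 and 13.17 in HCT116. The 4 arrays of COLO741 and SW620 overlapped and lay below the other 4. HT29 exceeded the mean of the other lines by 0.65 ± 0.09 (SE; limma adjusted p = 0.0012), and SW620 differed from the other lines' mean by -0.39 (adjusted p = 0.0113), which did not pass without the ABCB5-positive SW620 array (adjusted p = 0.11). NDUFB10, a membrane-arm subunit with disulfide bonds, was in turn highest in HCT116, at 12.23 and 12.17 against 11.55 to 11.75 in the other 6 arrays, by 0.54 ± 0.08 (SE; limma adjusted p = 0.00212).

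NDUFA10, of the nucleoside kinase fold, was lowest in COLO741 at 9.61 and 9.44 against 9.93 to 10.33 elsewhere (limma adjusted p = 0.00175). NDUFV3 was lowest in HT29 at 10.45 and 10.43 against 10.77 to 11.07 elsewhere (limma adjusted p = 0.00301), a call lost without the ABCB5-negative HT29 array (adjusted p = 0.0514). NDUFA6, of the LYR family, was highest in COLO741 at 12.87 and 13.01 and lowest in HT29 at 12.35 and 12.33.

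The X-linked accessory genes NDUFA1 and NDUFB11 had different orders. NDUFA1 read 11.93 and 11.67 in COLO741, 11.60 and 11.69 in SW620, 11.20 and 11.21 in HT29 and 11.39 and 11.17 in HCT116. COLO741 was higher than the other lines' mean by 0.42 (limma adjusted p = 0.01), but without its ABCB5-negative array the adjusted p was 0.091. NDUFB11 was highest in SW620 at 13.51 and 13.50 and lowest in HCT116 at 12.83 and 12.82, both past the threshold against the other lines (limma adjusted p = 0.00322 and 0.00231).

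NDUFS6 and NDUFB2 gave weaker calls. NDUFS6, a zinc-binding subunit, read 11.07 and 11.23 in HT29 and 10.44 and 10.53 in HCT116, while COLO741 spanned 10.55 to 10.92. HT29 was called higher and HCT116 lower than the other lines (limma adjusted p = 0.0213 and 0.019). The HT29 call was lost without either HT29 array (adjusted p = 0.0529 and 0.238) or without the ABCB5-negative HCT116 array (0.0594), and the HCT116 call without either HCT116 array (0.187 and 0.0851). NDUFB2 was called lower in HCT116, at 9.83 and 9.61 (limma adjusted p = 0.0123), and that call too was lost without either HCT116 array (0.0624 and 0.156).

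Of the complex II genes, the catalytic flavoprotein differed and the membrane anchors did not pass. SDHA read 12.61 and 12.61 in COLO741, 12.92 and 13.09 in SW620, 13.05 and 13.03 in HT29 and 12.38 and 12.40 in HCT116. HCT116 lay below all other arrays, by a difference of -0.50 ± 0.07 (SE) from the other lines' mean (limma adjusted p = 0.00208), and HT29 exceeded it 1.58-fold. HT29 was called higher than the other lines (adjusted p = 0.00632), a call lost without either HT29 array (0.0979 and 0.0504). Both probe sets that name SDHA together with its SDHAP copies were also lowest in HCT116, at 10.82 and 10.82 in 1 and 11.66 and 11.72 in the other.

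SDHC and SDHD, which anchor the enzyme in the membrane and form part of the ubiquinone site, spanned 13.33 to 13.49 and 12.87 to 13.01 over the 8 arrays. Their line means lay within 0.13 and 0.08 log2 units (limma F test, adjusted p = 0.534 and 0.809). By the brightest probe set, SDHD had the smallest range of the 45 genes. The dimmer SDHD probe set had a range of line means of 0.21, and the dimmer SDHC probe set 0.15.

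**Figure D2:**
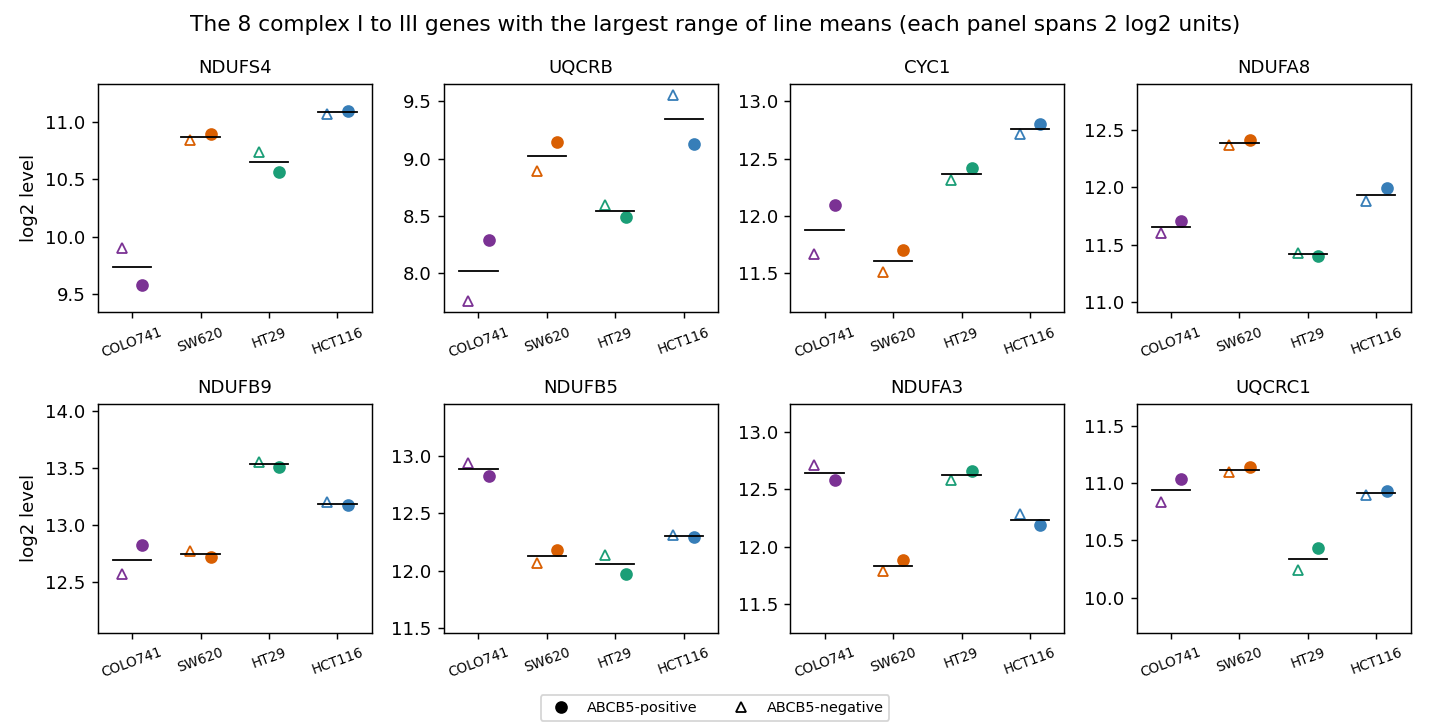
Log2 level by cell line of the 8 genes with the largest range of line means; open triangles are ABCB5-negative arrays, filled circles ABCB5-positive arrays and the bar is the mean of the 2 arrays, with 2 log2 units per panel. NDUFS4 and UQCRB are lowest in COLO741, CYC1 is highest in HCT116 with COLO741 and SW620 overlapping at the bottom, and NDUFB9 is highest in HT29 at 13.55 and 13.51.

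Complex III showed the next largest differences after NDUFS4. UQCRB, a small subunit known for binding ubiquinone, was the dimmest of the 45 genes and read 7.75 and 8.29 in COLO741, 8.89 and 9.15 in SW620, 8.59 and 8.49 in HT29 and 9.56 and 9.13 in HCT116. COLO741 lay below all other arrays, by a difference of -0.95 ± 0.18 (SE; limma adjusted p = 0.0047), and the 0.54 between its arrays was the widest gap within a line among the 45 genes. Against HT29 alone, COLO741 did not differ beyond the spread (-0.52, adjusted p = 0.0991 with limma). HCT116 was called higher than the other lines (adjusted p = 0.0111), but not without its ABCB5-negative array (adjusted p = 0.136).

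CYC1, the heme-bearing cytochrome that hands electrons to cytochrome c, read 11.66 and 12.10 in COLO741, 11.51 and 11.70 in SW620, 12.31 and 12.42 in HT29 and 12.71 and 12.80 in HCT116. HCT116 was highest and exceeded SW620 2.22-fold (limma adjusted p = 0.000418). COLO741 and SW620 overlapped and did not differ beyond the spread (0.27, adjusted p = 0.0869 with limma). UQCRC1, one of the matrix-facing core proteins, read 10.84 and 11.04 in COLO741, 11.10 and 11.14 in SW620, 10.24 and 10.44 in HT29 and 10.89 and 10.93 in HCT116. HT29 was lowest, by a difference of -0.65 ± 0.07 (SE; limma adjusted p = 0.000605), and SW620 was called higher (0.39, adjusted p = 0.00606), which did not pass without its ABCB5-negative array (0.0591).

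UQCRC2, the partner of UQCRC1, had another order, lowest in COLO741 at 12.78 and 12.73 against 13.02 to 13.33 elsewhere (limma adjusted p = 0.00451). UQCRQ, a small ubiquinone-binding subunit, was also lowest in COLO741, at 11.16 and 11.02 against 11.61 to 11.73 in the other 6 arrays (limma adjusted p = 0.000624), and SW620, HT29 and HCT116 had line means of 11.64, 11.68 and 11.67. UQCR11, a very small subunit, was lowest in HT29 at 9.93 and 10.08 against 10.40 to 10.65 elsewhere (limma adjusted p = 0.00207). The subunits of this complex thus did not share 1 order of lines.

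Counted line by line with limma, COLO741 had 10 of the 45 genes higher and 14 lower than the mean of the other lines, against 23.7% and 26% of all genes tested. SW620 had 9 higher and 7 lower (all genes, 22.1% and 22.9%), HT29 7 and 10 (19.7% and 23.2%) and HCT116 10 and 7 (21.7% and 20.5%). The medians of the 45 differences were -0.03, 0.03, -0.07 and 0.05 log2 units, beside -0.04, -0.05, 0.00 and 0.04 for all genes, so the median of the group stayed within 0.07 of 0 in each line. The 4 comparisons share arrays. Between pairs of lines, COLO741 differed from SW620 in 18 of the 45 genes, from HT29 in 22 and from HCT116 in 21, against 47%, 45.3% and 45.9% of all genes. SW620 differed from HT29 in 14 and from HCT116 in 16, and HT29 from HCT116 in 18, against 40%, 38.9% and 39%. The counts depended on single arrays: COLO741 had 4 higher without its ABCB5-negative array and 9 lower without its ABCB5-positive or the ABCB5-negative HT29 array. SW620 had 4 higher without its ABCB5-positive array, and 4 lower without either of its own, either HCT116 or the ABCB5-negative HT29 array. HT29 had 1 higher without either of its own arrays and 3 or 4 without the ABCB5-negative or ABCB5-positive HCT116 array, and 5 or 4 lower without its own ABCB5-negative or ABCB5-positive array. HCT116 had 3 or 5 higher without its ABCB5-negative or ABCB5-positive array, and 2 lower without either.

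By chromosome, the group on chromosome 19 was the largest. Of its 7 genes (NDUFA3, NDUFA7, NDUFA11, NDUFA13, NDUFB7, NDUFS7 and UQCR11), 6 were highest in COLO741 and 6 lowest in HT29, with 6 called higher in COLO741 and 4 called lower in HT29, where 23.7% and 23.2% of all genes tested were so called. Among the 16910 genes tested, 4229 were highest in COLO741 and 3701 lowest in HT29. The median COLO741 difference of the 7 was 0.32, against -0.02 for the 1251 other tested genes of that chromosome. On chromosome 8, CYC1, NDUFB9 and UQCRB were all called lower in COLO741 (26% of all genes), with a median of -0.46 against -0.02 for the other genes there, but each had its own order of lines. On chromosome 2, NDUFA10, NDUFB3 and NDUFS1 were all called lower in COLO741, with a median of -0.28 against -0.05. Of the 5 on chromosome 5, NDUFA2, NDUFS4 and UQCRQ were called lower in COLO741 (median of the 5 -0.42, other genes -0.17), and SDHA and NDUFS6 lower in HCT116 (20.5% of all genes). Of the 4 on chromosome 11 (NDUFS3, NDUFS8, NDUFV1 and SDHD), 0 were called in COLO741. These groupings were seen after the values and carry no test.

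Each gene was then set beside up to 20 tested genes nearest to it in chromosomal order, 10 on each side, with the 45 genes themselves left out. SDHA had 13 such neighbours, 12 of them lower in HCT116 than in the other lines, with a median difference of -0.19 beside -0.50 for SDHA. NDUFB9 had 18 of 20 higher in HT29, with a median of 0.98 beside its own 0.65. NDUFS4 had the sign of its surroundings but a larger difference, at -1.13 in COLO741 beside a neighbour median of -0.23, with 15 of 20 neighbours lower. NDUFA8 in SW620 stood at 0.72 beside 0.05. Opposite signs among the genes called in COLO741 were those of NDUFA3, NDUFA7, NDUFB7, NDUFS7 and UQCR11, all on chromosome 19. Their differences were 0.27 to 0.42, beside neighbour medians of -0.07 to -0.01.

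Across the 45 genes, the difference of a gene and the median of its neighbours had a Pearson correlation of 0.66 for COLO741, 0.64 for SW620, 0.58 for HT29 and 0.59 for HCT116. For 16888 tested genes with neighbours the values were 0.23, 0.22, 0.20 and 0.20, and for the 9596 of these at least as bright on average as the dimmest of the 45 they were 0.28, 0.28, 0.27 and 0.25. Among called genes, the sign was that of the neighbour median in 19 of 24 in COLO741, 15 of 16 in SW620, 15 of 17 in HT29 and 14 of 17 in HCT116 (79.2%, 93.8%, 88.2% and 82.4%), against 65.1%, 65.4%, 65.9% and 65.4% of all called genes. Of called genes at least as bright on average as the dimmest of the 45, the shares were 67.4%, 67.1%, 68.2% and 68.0%. These are descriptions over genes that share the same arrays and, where they lie close together, the same neighbours. DNA copy number was not measured.

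**Figure D3:**
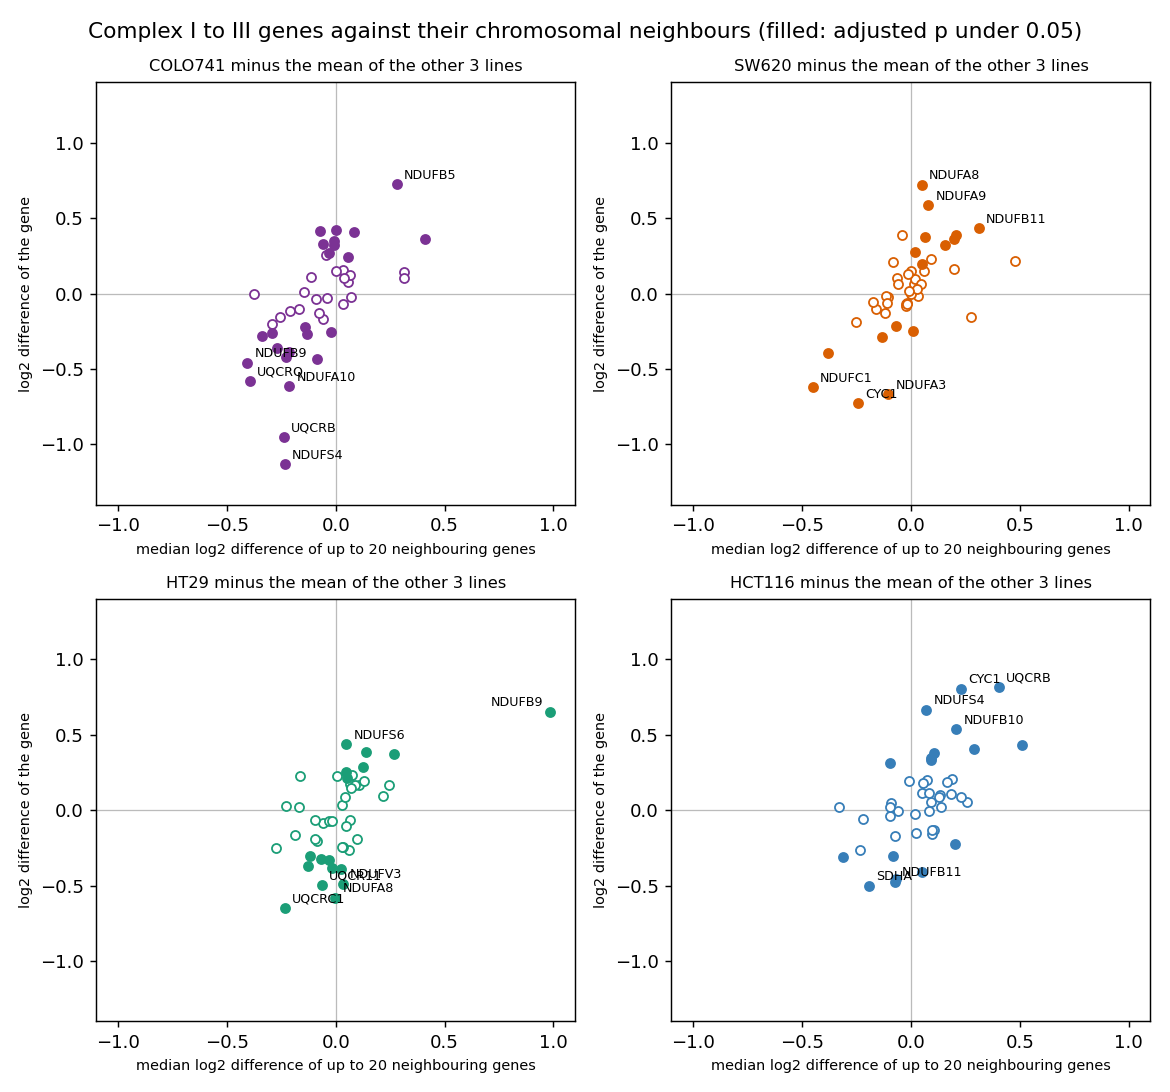
Log2 difference of each gene between 1 line and the mean of the other 3 (vertical axis) against the median of the same difference over up to 20 neighbouring genes (horizontal axis), 1 panel per line, filled where the gene's limma adjusted p was under 0.05. Points run from lower left to upper right in all 4 panels; NDUFB9 in HT29, at 0.65 with neighbours at 0.98, is the point farthest to the right, and NDUFS4 in COLO741, at -1.13, lies farthest down.

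The sorted populations did not separate any of the 45 genes. With limma and the cell line as block, 0 of 45 passed at an adjusted 0.05, as did 0% of all genes tested. At an unadjusted p under 0.05 there was 1, CYC1, where 4.4% of all genes were so placed, and leaving out any 1 line brought it to 0. Of the 45 mean differences 20 were above 0 and 25 below, with a median of -0.01 log2 units. Over the 16910 genes tested, 8125 were above 0 and 8785 below. All 45 intervals at the 95% level lay within 0.5 log2 units of 0, the lowest bound being -0.37 and the highest 0.43. G2/M markers were higher in ABCB5-positive cells for 9 of 10 genes, with a median of 0.26 and array means of 12.51 to 12.84 against 12.23 to 12.55. The mean of 9 leukocyte markers was 8.66 in the ABCB5-positive SW620 array and 7.39 to 7.62 in the other 7. ABCB5 transcript itself was measured above background in COLO741 only, where it was lower in the array labelled positive (8.14) than in the array labelled negative (9.42). The part of these in the comparison was not tested.

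CYC1 was higher in the ABCB5-positive cells of all 4 lines, by 0.43 log2 units for COLO741, 0.19 for SW620, 0.10 for HT29 and 0.08 for HCT116, a mean of 0.20 ± 0.16 (SD, n = 4) with a limma unadjusted p = 0.0396 and adjusted p = 0.898. The COLO741 pair was farther apart than the other 3, and in every alternative fit tried the adjusted p lay between 0.798 and 1. UQCRC1 was also higher in all 4 lines, by 0.20, 0.05, 0.19 and 0.04 in the same order, a mean of 0.12 ± 0.09 (SD; limma adjusted p = 0.898, n = 4). UQCRQ was lower in 4 of 4, by -0.14, -0.06, -0.01 and -0.12, with the same adjusted p. In all, 6 of 45 genes (13.3%) had 1 sign in every line, against 13.4% of all genes tested.

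Within single lines, without a test, the 180 differences had a median size of 0.08 log2 units, and 1 exceeded 0.5, UQCRB in COLO741 at 0.54. NDUFB1, a small membrane-arm subunit, differed by -0.45 in COLO741 but 0.12 in SW620, -0.03 in HT29 and -0.17 in HCT116. In SW620 37 of the 45 genes were higher in the ABCB5-positive array, with a median of 0.07 beside 0.02 for all genes, and in COLO741 13 were, with a median of -0.08 beside -0.02. Of the 16910 genes tested, 9139 were higher in the ABCB5-positive array of SW620 and 7705 in that of COLO741. These counts each rest on 1 pair of arrays.

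**Figure D4:**
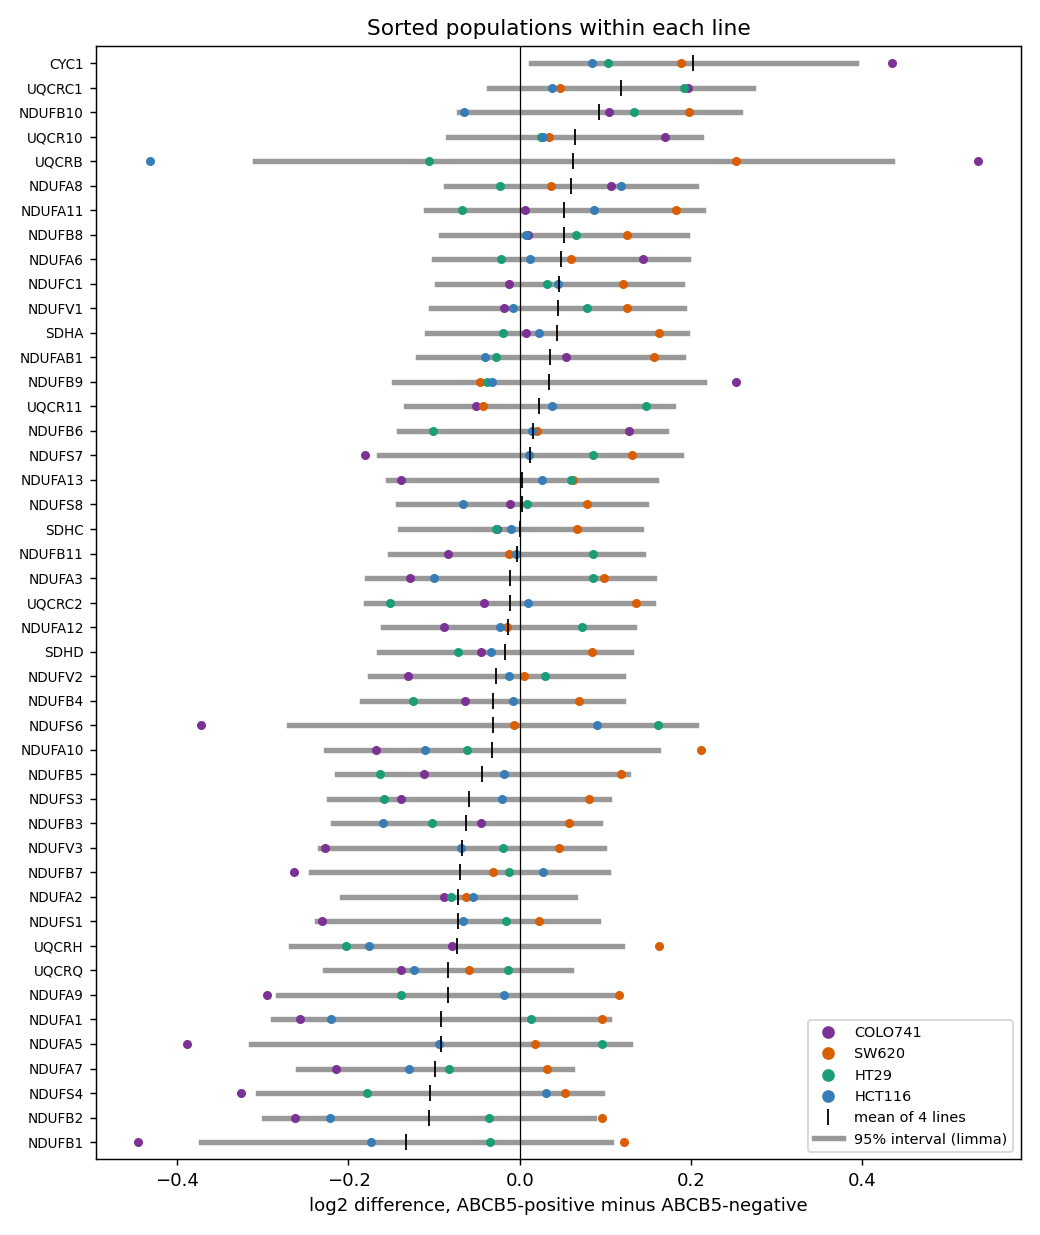
Log2 difference of ABCB5-positive minus ABCB5-negative cells for the 45 genes, ordered by their mean; coloured points are the 4 lines, black ticks the means and grey bars the 95% limma intervals. CYC1, with a mean of 0.20, has the only bar that does not reach 0, and the widest scatter belongs to UQCRB, with 0.54 in COLO741.

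Genes that build or feed these complexes were counted in the same way, as higher and lower than the mean of the other lines by limma. Of all genes tested, 23.7% and 26% were higher and lower in COLO741, 22.1% and 22.9% in SW620, 19.7% and 23.2% in HT29 and 21.7% and 20.5% in HCT116. Of 27 assembly factors, 4 were called higher and 7 lower in COLO741, 9 and 1 in SW620, 5 and 6 in HT29 and 5 and 4 in HCT116, and 18 passed the F test, where 67.2% of all genes did. BCS1L, the chaperone that inserts the Rieske protein into complex III, read 10.03 and 9.68 in COLO741 and 10.83 to 10.94 in the other 6 arrays, 2.04-fold lower (limma adjusted p = 0.000267). TMEM186, a complex I assembly factor, was 1.73-fold lower in COLO741 (limma adjusted p = 0.000475).

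In complex IV, 4 of 14 nuclear subunits were called higher and 3 lower in COLO741, 1 and 2 in SW620, 1 and 1 in HT29 and 3 and 0 in HCT116, with COX5B at 0.34 and COX7C at -0.31 in COLO741. Of 16 ATP synthase subunits, 4 were called higher and 2 lower in COLO741, 1 and 2 in SW620, 1 and 6 in HT29 and 7 and 2 in HCT116. ATP5PF and ATP5MF were higher in COLO741 by 0.38 and 0.36. COXFA4, the former NDUFA4, read 11.33 and 11.31 in COLO741 and 10.25 to 10.84 elsewhere, a difference of 0.78 ± 0.07 (SE; limma adjusted p = 0.000177).

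Among 11 citric acid cycle enzymes, 6 were called higher and 1 lower in COLO741, 3 and 0 in SW620, 1 and 3 in HT29 and 0 and 3 in HCT116. The COLO741 calls were led by SUCLG2, the GTP-forming succinyl-CoA ligase subunit, at 12.73 and 12.22 against 11.04 to 11.48 elsewhere, and by OGDH, of the oxoglutarate dehydrogenase complex, at a difference of 0.46. Of 8 electron carriers and other enzymes that reduce ubiquinone, 4 were higher and 3 lower in COLO741, 4 and 1 in SW620, 2 and 2 in HT29 and 2 and 2 in HCT116. SQOR, which oxidises sulfide, read 6.33 and 6.60 in COLO741, within the background range, and 9.64 to 10.65 elsewhere (limma adjusted p = 6.8e-06). ETFB, of the electron-transferring flavoprotein, was 1.82-fold lower in COLO741. Of 14 membrane carriers and import proteins, 1 was higher and 6 lower in COLO741, 3 and 1 in SW620, 1 and 5 in HT29 and 7 and 0 in HCT116. In COLO741, TIMM23 of the import channel was lower (-0.62) and the outer-membrane channel VDAC3 higher (0.43).

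Among the mitochondrial lists counted here, the largest difference of COLO741 from the other lines was in the regulators of mitochondrial gene expression. PPARGC1A, a coactivator known to raise mitochondrial gene expression, read 10.32 and 10.82 in COLO741 and 5.77 to 6.24 in the other 6 arrays, near background (limma adjusted p = 1.19e-06). PPRC1, a related coactivator, read 10.87 and 10.66 in COLO741 and 11.21 to 12.12 elsewhere, 1.82-fold lower (limma adjusted p = 0.000233). Of the 15 regulators, 3 were called higher and 8 lower in COLO741, 3 and 3 in SW620, 2 and 5 in HT29 and 7 and 4 in HCT116. Beside these values, the 45 subunit genes had a median difference of -0.03 in COLO741, with 10 higher and 14 lower.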

How the data were processed

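The authors deposited log2 expression values for 33297 probe sets on 8 arrays, with array medians of 8.03 to 8.10, made with Affymetrix Expression Console per the submitters' processing notes. The log2 scale was read from the range of 2.99 to 15.24. The sources used here do not give its version, the summarisation or the normalization. The number of arrays limits the precision. Probe sets naming 1 gene in the platform annotation (19460; 1754 named several and 12083 were not listed) were used, with symbols updated through GRCh38.p14, of which no coordinates are given apart from the RefSeq promoter windows. Genes with a mean under 5.74, the median of 357 olfactory receptor probe sets, were left out (1507), and 16910 were tested.

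limma 3.58.1 (R 4.3.3) compared the populations with line as a fixed block, and the lines with the population as covariate, two-sided, with Benjamini-Hochberg adjustment at 0.05 over all genes tested. The model left 3 residual degrees of freedom, and moderation added 3.44. The pairing comes from the sample titles, which name the line and the population of each array and give no pair number. The arrays of a line deviated together from their population means, with correlations of 0.932 to 0.963. The scripts were tested on simulated data. Alternatives were quantile normalization, other filters, the mean of a gene's probe sets, a trended prior, other blocks or covariates and leaving out arrays. The members and gene lists were chosen with earlier results of these data known.

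Genes named were the complex I core, complex II and main complex III genes, the 8 largest ranges of line means, the 4 largest called differences per direction in each line, the 6 smallest p-values between populations, and up to 2 genes per other list. NDUFA2, NDUFA11, NDUFA13, NDUFB3, NDUFB4 and NDUFB7 were named after their values were seen, as members of a chromosome or for their probe sets.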

Additional observations from a re-analysis of the deposited data

Results flagged for a closer look

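Within each population of 4 arrays, and over the 4 differences between populations, 1 line lay far from the other 3 in 6 of 96 sets of values of the named genes. The criterion was Dixon's critical ratio of gap to range for 4 values, which chance alone passes in about 1 of 20 unselected sets. Many of the named genes were chosen for large differences between lines in these same values, and the arrays of a line deviated together. The rate is therefore no yardstick for the sets flagged here, which are described only.

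NDUFB10 in HCT116 stood above the other lines in both populations, at 12.17 in ABCB5-positive cells (others 11.72 to 11.75) and 12.23 in ABCB5-negative cells (others 11.55 to 11.63). UQCRQ in COLO741 stood below them in both, at 11.02 (others 11.61 to 11.68) and 11.16 (others 11.67 to 11.73). UQCRC2 in COLO741 stood below in ABCB5-positive cells, at 12.73 (others 13.16 to 13.22). NDUFB9 differed by 0.25 log2 units between the COLO741 populations, against -0.05 to -0.03 in the other lines.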

How the results depend on the processing

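Between populations, 0 of 45 genes were called under every alternative, with no replicate block, with the replicate block as a random effect, and without each line in turn (0 to 0); the count at an unadjusted p under 0.05 went from 1 to 0 in each of these. Of the 38 values of single named genes, none changed sign; 498 refits kept the side of the threshold and 16 lost a call, each by leaving out an array; calls between pairs of lines are not among these. With the prior variance as a trend, HT29 had 12 genes higher in place of 7. After quantile normalization the COLO741 median was 0.01 in place of -0.03. Leaving out 1 array moved the counts of the 45 genes, higher and lower, to 4 to 11 and 9 to 15 in COLO741, 4 to 10 and 4 to 7 in SW620, 1 to 9 and 4 to 13 in HT29, and 3 to 11 and 2 to 8 in HCT116. For all genes the counts moved to 2273 to 3979 and 2373 to 4155 in SW620, 1987 to 3533 and 2366 to 4237 in HT29, and 1735 to 3941 and 1937 to 3773 in HCT116. Of the pairs of lines, a comparison added after seeing the data in these refits, called genes ranged from 10 to 22 for COLO741 against HCT116 (main 21), 10 to 22 against HT29 (22) and 10 to 17 against SW620 (18), 4 to 20 for HT29 against HCT116 (18), 4 to 16 for SW620 against HCT116 (16) and 7 to 17 against HT29 (14). A line left with 1 array is assumed to vary like the others.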
